A study of Schizosaccharomyces pombe with 6 samples.

Results

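The 31 rad and rhp genes of fission yeast (*Schizosaccharomyces pombe*) described here are those whose probe set is annotated with 1 *S. pombe* gene and a symbol of "rad" or "rhp" and a number. Each gene had 1 probe set, among 2917 probe sets of *S. pombe* genes on the Affymetrix yeast array and 10928 probe sets in all. The "rad" symbols come from radiation-sensitive mutants, and the "rhp" symbols mark homologs of the RAD genes of budding yeast (*Saccharomyces cerevisiae*). The members were sorted by function into 8 checkpoint genes, 6 recombination genes, 11 excision repair genes, 3 genes of post-replication repair, and 3 genes of cohesin and of the SUMO pathway. For 5 members the current symbol differs: rad22 is now rad52, rad32 is mre11, and rhp54, rhp55 and rhp57 are rad54, rad55 and rad57.

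Total RNA came from 3 samples of isp7+ null cells and 3 samples of wild-type cells, 1 array each. Both strains were in mid-log growth at 30 degrees in Edinburgh minimal medium with 5 g/L of ammonium chloride. No DNA-damaging treatment is named in the labels, and the further genotype of the strains and the way isp7 was removed are not given in the sources used here. Isp7 belongs to the 2-oxoglutarate- and iron-dependent dioxygenases, and the series' title ties it to amino acid uptake and TOR signalling.

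DNA damage is sensed by checkpoint proteins that hold the cell cycle, and is removed by separate repair routes. Homologous recombination copies an intact sister chromatid to mend breaks, nucleotide excision repair cuts out bulky lesions such as those made by ultraviolet light, and post-replication repair lets forks pass damaged bases. In fission yeast many of these genes are transcribed in undamaged cells, and their products also serve ordinary DNA replication.

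The values are log2 probe set values, and every log2 change below is isp7 null minus wild type. "Higher" and "lower" mean a limma adjusted p under 0.05 over all 2917 probe sets, and "rose" and "fell" mean in addition a change of at least 1.5-fold. The probe set of isp7 itself stood at 6.02, 6.38 and 6.17 on the null arrays and at 11.70, 11.63 and 11.55 on the wild-type arrays, the direction that the labels give. Arrays of a group correlated at 0.998 to 0.999 and arrays of different groups at 0.973 to 0.978. All 31 members lay above the background of 7.08, as did 97.6% of all *S. pombe* probe sets, with group means between 7.83 and 14.32. The array also carries 22 RAD probe sets of *S. cerevisiae*, which are made for the transcripts of another species. Their group means lay between 4.42 and 6.51, within the *S. cerevisiae* values from which the background was set. Of the 22, 1 had an adjusted p under 0.05 over all probe sets of the array, RAD52 with a log2 change of -0.20 (limma adjusted p = 0.0193). A change of this size thus passed below the background, at group means of 4.80 and 4.99, in a probe set made for another species. Whether it binds an *S. pombe* transcript was not tested, and the members were tested in another fit and at higher levels.

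Most rad and rhp genes were slightly lower in isp7 null cells, and 1 of them, rad2, passed 1.5-fold. Of the 31 members 17 were lower, 5 were higher and 9 did not pass. The share that passed in either direction, 71.0%, was close to the 70.7% of all *S. pombe* probe sets. By direction, 54.8% of the members were lower against 41.3% of all probe sets, and 16.1% were higher against 29.3%. This balance depends on scaling: with median centring 14 members were lower (45.2%, against 35.6% of all probe sets) and 7 higher (22.6%, against 34.8%). The members' median log2 change was -0.14, against -0.05 over all probe sets. No member rose, against 4.22% of all probe sets, and 1 of 31 fell, against 4.39%, where 8.60% of all probe sets did either. The groups of 24 members did not overlap, 77.4% of the 31, against 76.1% of all probe sets. All null arrays lay below all wild-type arrays for 18 members (45.2% of all probe sets did so) and above them for 6 (30.9%).

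**Figure D1:**
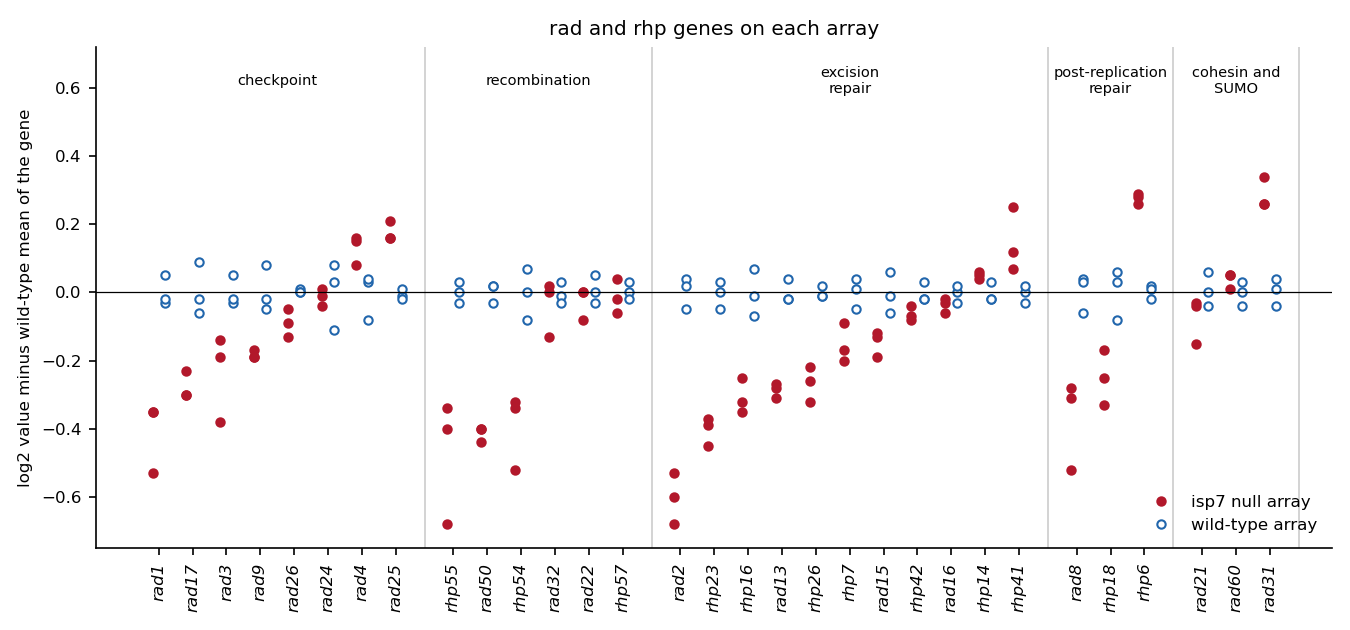
Log2 value of each rad and rhp gene on each array after subtraction of the gene's wild-type mean (vertical axis), with genes ordered by change within their class along the horizontal axis. Filled points are the 3 isp7 null arrays and open points the 3 wild-type arrays; the null points of 18 genes lie wholly below the wild-type points and those of 6 genes wholly above.

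Across genes these small changes ran weakly with gene length, and the largest decreases were not confined to long genes. Across the 31 members Spearman's rho of the change with gene length was -0.338, against -0.367 over all 2917 probe sets, as a description across genes measured on the same 6 arrays. The members' median gene length was 2496 bases, against 1876 bases over all probe sets. Among the largest decreases, rad2 (1837 bases), rhp55 (1473), rad1 (1726) and rhp23 (1561) lay below 1876 bases and rad50 (4246) above. Each array was then corrected for its fitted trend with gene length, a step that also brings the arrays to a common mean. After it 11 members were lower (35.5%, against 38.1% of all probe sets) and 8 higher (25.8%, against 33.7%). The larger share of lower members was gone, and the median log2 change was -0.03, against -0.02 over all probe sets. Median centring alone left 14 members lower and took their median to -0.09. How much of the shift goes with length alone was not tested. The fall of rad2 also depends on scaling: its log2 change of -0.61 became -0.54 after repeated quantile normalization, -0.56 after median centring and -0.58 after the length correction, each short of 1.5-fold. Without null array 1 it was -0.57. It stayed past the adjusted p in all 4 settings.

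**Figure D2:**
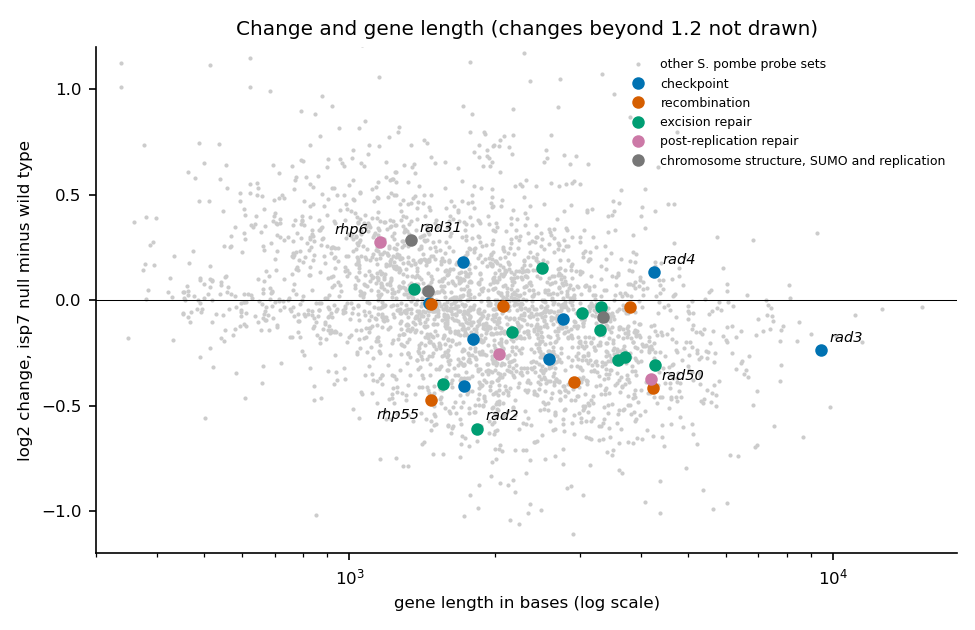
Log2 change, isp7 null minus wild type (vertical axis), against gene length in bases (horizontal axis, log scale). Coloured points are the 31 rad and rhp genes by class and grey points the other probe sets of *S. pombe* genes, of which 34 lie outside the axes and are not drawn; longer members tended to lie lower (Spearman's rho -0.338), as longer genes did over all probe sets (-0.367).

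Among the checkpoint genes rad1, rad17, rad3, rad9 and rad26 were lower, rad4 and rad25 were higher, and rad24 did not pass. Of 8 members 5 were thus lower (41.3% of all probe sets) and 2 higher (29.3%), with a median log2 change of -0.14. After the length correction 3 were lower (37.5%, against 38.1% of all probe sets) and 3 higher (37.5%, against 33.7%), and the median was 0.00. The 9-1-1 clamp, a ring of Rad1, Rad9 and Hus1 that is set on DNA at damage, had all 3 of its genes lower. The rad1 gene (SPAC1952.07) stood at 10.77, 10.95 and 10.95 on the null arrays, against 11.27, 11.28 and 11.35 on the wild-type arrays. The null arrays all lay below the wild-type ones, with null array 1 the lowest. That array was the lowest null array for 16 of the 31 members and for 49.5% of all probe sets. Its log2 change was -0.41 (SE 0.056, limma adjusted p = 0.0005), a level 1.33-fold lower. For rad9 the log2 change was -0.19 (SE 0.039) and for hus1, which has no rad name, -0.27 (SE 0.054).

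The gene rad17 (SPAC14C4.13) encodes the large subunit of the loader that places the clamp. It stood at 9.48, 9.55 and 9.48 on the null arrays, against 9.87, 9.72 and 9.76 on the wild-type arrays. The groups did not overlap, and the log2 change was -0.28 (SE 0.045, limma adjusted p = 0.00103). Of the small RFC subunits that Rad17 binds, and which also load the PCNA clamp in replication, rfc3 fell (-0.74, SE 0.034), rfc5 (-0.38) and rfc4 (-0.25) were lower, and rfc2 did not pass (-0.06).

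The kinase gene rad3 (SPBC216.05), the counterpart of human ATR, is the longest member at 9446 bases. It stood at 9.29, 9.53 and 9.48 on the null arrays, against 9.64, 9.72 and 9.65 on the wild-type arrays, again without overlap. The log2 change was -0.24 (SE 0.064, limma adjusted p = 0.0125). After the length correction the sign turned, to 0.14 (limma adjusted p = 0.0431), so the direction of rad3 depends on how length is treated, and its call also ended without variance moderation (0.0577). For rad26, whose product binds Rad3, the change was -0.09 (SE 0.029, limma adjusted p = 0.0276). That call ended when null array 1 or 3 or any wild-type array was left out (limma adjusted p from 0.0596 to 0.071) and with median centring (0.223), and the sign turned with the length correction (0.03).

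Above the wild type stood rad4 (SPAC23C4.18C, also called cut5), which encodes the scaffold related to human TopBP1 that is needed to start replication and to activate Rad3. It stood at 10.81, 10.74 and 10.82 on the null arrays, against 10.69, 10.58 and 10.70 on the wild-type arrays. The groups did not overlap, and the log2 change was 0.13 (SE 0.04, limma adjusted p = 0.0204). At 4267 bases rad4 is a long gene, and the length correction took the change to 0.34. The call ended without null array 3 (0.0626) or wild-type array 2 (0.0527), both limma adjusted p.

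The genes rad24 and rad25 encode 14-3-3 proteins, which bind phosphorylated partners such as the Cdc25 phosphatase and Chk1. For rad25 (SPAC17A2.13C) the values were 14.28, 14.33 and 14.28 on the null arrays, against 14.11, 14.10 and 14.13 on the wild-type arrays. The null arrays were all higher, by 0.18 (SE 0.028, limma adjusted p = 0.000841). For rad24 (SPAC8E11.02C) they were 14.33, 14.31 and 14.28 on the null arrays, against 14.21, 14.40 and 14.35 on the wild-type arrays. The groups of rad24 overlapped, and the 95% interval of its change ran from -0.128 to 0.101.

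**Figure D3:**
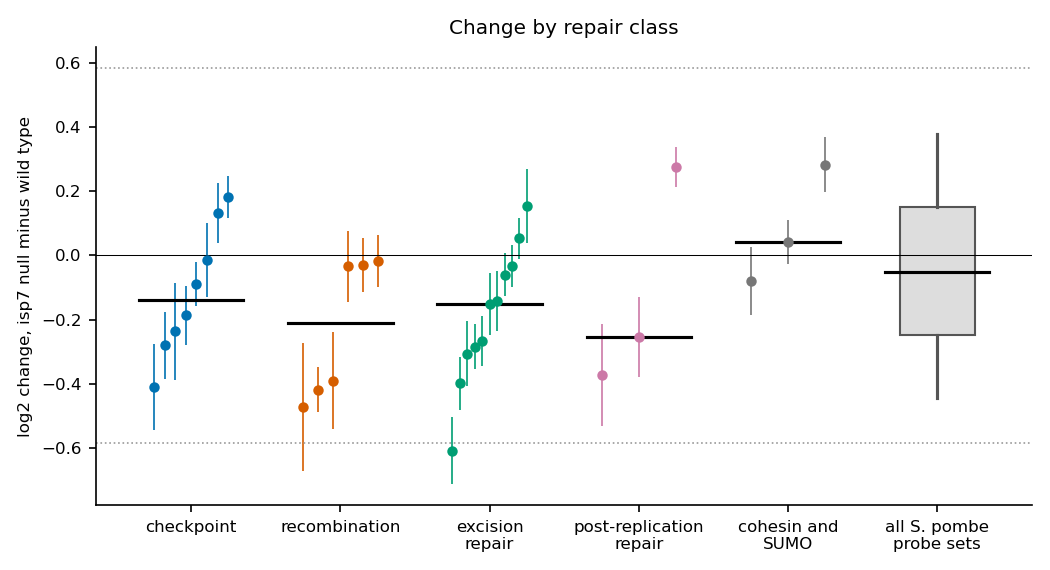
Log2 change, isp7 null minus wild type (vertical axis), of each rad and rhp gene by class, with points and 95% intervals of the limma fit, a black line at each class median, and dotted lines at 1.5-fold. The last column shows all probe sets of *S. pombe* genes, with a box from percentile 25 to 75, whiskers to percentiles 10 and 90 and a line at the median of -0.05; the class medians of checkpoint, recombination and excision repair are -0.14, -0.21 and -0.15.

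The recombination genes fell into 3 that were lower and 3 that did not pass, and none was higher. Their median log2 change was -0.21, against -0.05 over all probe sets (41.3% of all probe sets were lower and 29.3% higher). The 3 lower genes were rhp55, rad50 and rhp54. After the length correction the class median was -0.12, and all 3 were still lower.

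Rhp55 and Rhp57 form a heterodimer that acts in homologous recombination. The rhp55 gene (SPAC3C7.03C) stood at 8.71, 9.05 and 8.99 on the null arrays, against 9.42, 9.39 and 9.36 on the wild-type arrays. The groups did not overlap and null array 1 was the lowest. The log2 change was -0.47 (SE 0.084, limma adjusted p = 0.00178), and -0.37 without null array 1. Its partner rhp57 (SPAC20H4.07) stood at 11.56, 11.60 and 11.66 on the null arrays, against 11.62, 11.65 and 11.60 on the wild-type arrays. These groups overlapped, with a 95% interval of the change from -0.097 to 0.065.

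Rad50 and Rad32 are the coiled-coil ATPase and the nuclease of the MRN complex, which binds and trims broken ends. For rad50 (SPAC1556.01C) the values were 9.83, 9.83 and 9.79 on the null arrays, against 10.25, 10.20 and 10.25 on the wild-type arrays. The spread within each group was small beside the change of -0.42 (SE 0.03, limma adjusted p = 2.49e-05), a level 1.34-fold lower. For rad32 (SPAC13C5.07) they were 10.02, 10.15 and 10.17 on the null arrays, against 10.18, 10.14 and 10.12 on the wild-type arrays. The groups overlapped, with a 95% interval of the change from -0.144 to 0.077, and after the length correction rad32 was higher by 0.15 (limma adjusted p = 0.00892). The gene of the remaining subunit, nbs1, was lower (log2 change -0.25, SE 0.059).

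The motor protein Rad54, encoded by rhp54 (SPAC15A10.03C), remodels the joint between the broken and the intact DNA. Its gene stood at 9.29, 9.49 and 9.47 on the null arrays, against 9.81, 9.73 and 9.88 on the wild-type arrays. The null arrays all lay lower (log2 change -0.39, SE 0.064, limma adjusted p = 0.00119). The gene rad22 (SPAC30D11.10) encodes the Rad52 mediator. It stood at 7.78, 7.86 and 7.86 on the null arrays, against 7.91, 7.86 and 7.83 on the wild-type arrays. Its groups overlapped, with a 95% interval of the change from -0.113 to 0.055.

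The excision repair genes were lower in 7 of 11 cases (41.3% of all probe sets were lower), higher in 1 (29.3%) and did not pass in 3. Their median log2 change was -0.15. The class holds rad2, a flap endonuclease of the ultraviolet-damage excision pathway and of replication, beside 10 genes of nucleotide excision repair. Of these 10 genes 6 were lower and 1 was higher, with a median of -0.15. The class has long genes, with a median of 3019 bases. After the length correction 3 were lower (27.3%, against 38.1% of all probe sets) and 2 higher (18.2%, against 33.7%). The median was then -0.09, and -0.04 without rad2, against -0.02 over all probe sets.

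The largest change of any member was that of rad2 (SPAC3G6.06C), the counterpart of human FEN1, which trims Okazaki fragments. It stood at 9.64, 9.79 and 9.72 on the null arrays, against 10.27, 10.36 and 10.34 on the wild-type arrays. The gap between the groups was several times the spread within either. Its log2 change was -0.61 (SE 0.044, limma adjusted p = 2.65e-05), a level 1.52-fold lower, and 92.4% of *S. pombe* probe sets changed by less. The PCNA gene pcn1, whose product holds this nuclease on DNA, was lower (log2 change -0.44, SE 0.025).

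Of the genes of damage recognition, rhp23 was lower and rhp41 higher. Rhp23 is a ubiquitin-binding partner of the XPC homolog Rhp41 that also carries proteins to the proteasome. Its gene (SPBC2D10.12) stood at 12.34, 12.32 and 12.26 on the null arrays, against 12.66, 12.74 and 12.71 on the wild-type arrays. The null arrays were all lower (log2 change -0.40, SE 0.034, limma adjusted p = 5.23e-05), and rhp23 at 1561 bases is not a long gene. For rhp41 (SPAC12B10.12C) the values were 10.87, 10.74 and 10.69 on the null arrays, against 10.62, 10.59 and 10.64 on the wild-type arrays. The null arrays were higher, by 0.15 (SE 0.049, limma adjusted p = 0.0251), with null array 1 the highest. The call on rhp41 ended without wild-type array 1 (0.06) or 2 (0.075), both limma adjusted p. Its paralog rhp42 did not pass (-0.06).

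Rhp7 and Rhp16 work together in the repair of DNA that is not being transcribed. The ATPase gene rhp16 (SPCC330.01C) stood at 10.24, 10.14 and 10.17 on the null arrays, against 10.42, 10.48 and 10.56 on the wild-type arrays. It was lower (log2 change -0.31, SE 0.043, limma adjusted p = 0.000567), without overlap. For rhp7 (SPCC330.02), its neighbour in the genome, the change was -0.15 (SE 0.041, limma adjusted p = 0.0128). Both calls ended with the length correction, at -0.10 for rhp16 and -0.09 for rhp7, and that on rhp7 also with median centring (limma adjusted p = 0.0798).

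Among the genes of the later steps, rad13, which encodes the nuclease related to human XPG, was lower (log2 change -0.28, SE 0.03, limma adjusted p = 0.000123). The gene of the transcription-coupled repair ATPase Rhp26, related to human CSB, was lower (log2 change -0.27, SE 0.033), and its call ended with the length correction (-0.09, limma adjusted p = 0.0662). The TFIIH helicase gene rad15, related to human XPD, was lower (log2 change -0.14, SE 0.04), and its call ended with median centring (limma adjusted p = 0.0552) and its sign turned with the length correction (0.01). The XPF nuclease gene rad16 (SPCC970.01) had 11.12, 11.08 and 11.11 on the null arrays, against 11.14, 11.11 and 11.16 on the wild-type arrays. Its groups overlapped, and the 95% interval of the change ran from -0.099 to 0.032. After the length correction rad16 was higher by 0.12 (limma adjusted p = 0.00992). The damage-verification gene rhp14 (SPBC649.03), related to human XPA, had 10.80, 10.81 and 10.79 on the null arrays, against 10.78, 10.73 and 10.73 on the wild-type arrays. Its groups did not overlap but the change of 0.05 did not pass (limma adjusted p = 0.117), while with median centring it was higher by 0.10 (limma adjusted p = 0.0156).

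In post-replication repair the ubiquitin-conjugating enzyme was higher and both ligases were lower. Over all probe sets 29.3% were higher and 41.3% lower, and 3 genes are too few to set against these shares. Rhp6 and its ligase Rhp18 attach ubiquitin to PCNA at stalled forks, and Rad8 extends the chain. The rhp6 gene (SPAC18B11.07C) stood at 13.88, 13.89 and 13.86 on the null arrays, against 13.62, 13.61 and 13.58 on the wild-type arrays. All null arrays were higher, by 0.28 (SE 0.026, limma adjusted p = 7.89e-05). For rhp18 the change was -0.25 (SE 0.053, limma adjusted p = 0.00374) and for rad8 -0.37 (SE 0.067, limma adjusted p = 0.0019). These 3 genes differ in length, at 1157 bases for rhp6, 2038 for rhp18 and 4204 for rad8, and kept their calls after the length correction, at 0.21, -0.20 and -0.17. Of the enzymes that lengthen the chain with Rad8, ubc13 was higher by 0.25 (SE 0.025) and mms2 did not pass (0.05).

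Of the remaining members, rad31 was higher and rad21 and rad60 did not pass. Rad31 is a subunit of the enzyme that activates SUMO. Its gene (SPAC4C5.04) stood at 12.38, 12.30 and 12.30 on the null arrays, against 12.08, 12.00 and 12.05 on the wild-type arrays. The groups lay apart, by 0.28 (SE 0.036, limma adjusted p = 0.000346). Other genes of the SUMO pathway differed in direction. The SUMO-conjugating enzyme gene hus5 was higher (0.35, SE 0.033), and the SUMO ligase gene pli1 was lower (-0.47, SE 0.028). The SUMO gene pmt3 did not pass (-0.06). For rad21, the cohesin subunit that separase cleaves, the 95% interval of the change ran from -0.185 to 0.025. For rad60, which encodes a protein with SUMO-like domains, it ran from -0.027 to 0.111, and with median centring rad60 was higher by 0.09 (limma adjusted p = 0.033).

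The changes of known partners were set side by side in 9 pairs. The pairs were chosen after their values had been seen, so their differences are a description without a test. The widest gap was that of rhp41 and rhp23, whose log2 changes differed by 0.55 (SE 0.0513). That of rhp6 and rhp18 was 0.53 (SE 0.0682), and that of rad32 and rad50 was 0.38 (SE 0.0638). For rhp55 and rhp57 it was -0.46 (SE 0.0889), with rhp55 the lower. The 14-3-3 genes rad24 and rad25 differed by -0.20 (SE 0.059), and the remaining 4 pairs by 0.15 to 0.22 in size. With the length correction the difference of rad3 and rad26 turned from -0.15 to 0.11, and that of rhp7 and rhp16 went to 0.01.

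**Figure D4:**
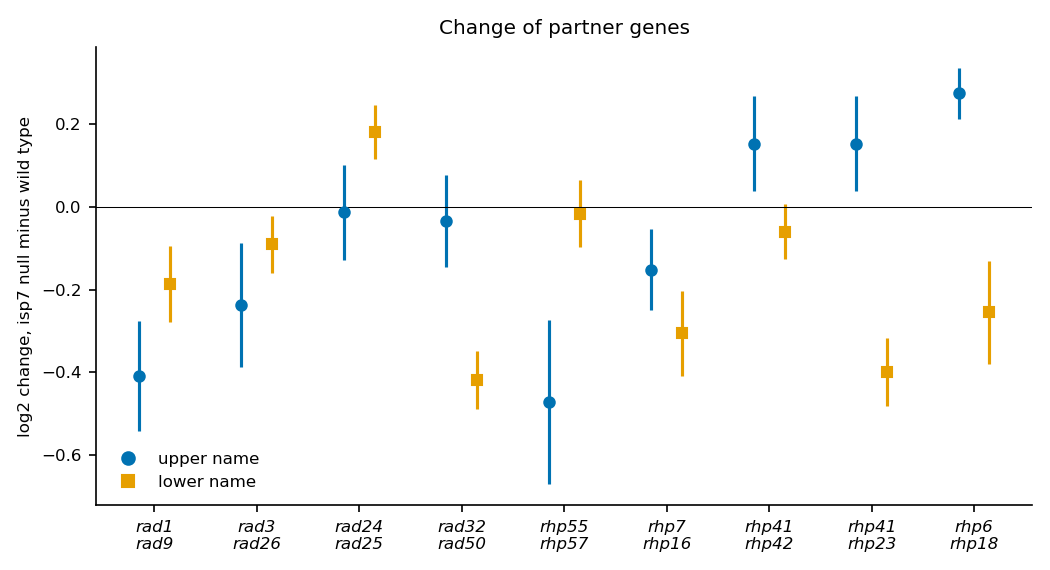
Log2 change, isp7 null minus wild type (vertical axis), of the genes of 9 partner pairs (horizontal axis), with 95% intervals of the limma fit. Circles are the upper name and squares the lower name of each pair; the partners lie 0.15 to 0.55 apart.

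Repair and checkpoint genes without a rad or rhp name were set beside them from 7 lists. Of 103 genes 45 were lower (43.7%, against 41.3% of all probe sets) and 24 were higher (23.3%, against 29.3%), with a median log2 change of -0.06. The 5 that fell (4.85%, against 4.39%) were the Cdc2-inhibiting kinase gene mik1 (-0.89, SE 0.11), nse5 of the Smc5-6 complex (-0.79, SE 0.039), rfc3, the replication initiation gene drc1 (-0.69, SE 0.05) and the helicase gene srs2 (-0.65, SE 0.051). The 1 that rose was mag2, from the list of excision repair partners (0.67, SE 0.144). Without null array 2 or wild-type array 2, or after the length correction, none rose.

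Over all probe sets 41.3% were lower and 29.3% higher. By list, 12 of 19 checkpoint partners were lower (63.2%) and 2 higher (10.5%), with a median of -0.17. After the length correction their median was -0.07, against -0.02 over all probe sets. The replication checkpoint kinase gene cds1 was higher by 0.29 (SE 0.045), while that of the damage checkpoint kinase, chk1, was lower (log2 change -0.31, SE 0.052), with a null mean of 6.82 below the background. Of 24 recombination partners 11 were lower (45.8%) and 7 higher (29.2%), and of 21 excision repair partners 8 were lower (38.1%) and 6 higher (28.6%), all near the shares over all probe sets. All 4 measured mismatch repair genes had log2 changes below 0, as did 1701 of the 2917 probe sets. Of the 4, 3 were lower, led by msh1 (-0.49, SE 0.035). These are long genes, with a median of 3542 bases. The length correction took their median log2 change from -0.37 to -0.19. In non-homologous end joining 1 of 5 was lower, pku70 (-0.49, SE 0.05), and 2 were higher, xlf1 (0.29) and pol4 (0.11), of which pol4 lay below the background on all arrays (means of 5.99 in the null and 5.88 in wild type). Of 10 genes of translesion synthesis and damage tolerance 3 were lower, led by the SUMO ligase gene pli1 (-0.47, SE 0.028), and 3 higher. Of 21 cohesin, Smc5-6 and SUMO genes 8 were lower (38.1%) and 4 higher (19.0%).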

How the data were processed

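The authors deposited 1 log2 value per probe set and array, and the submitters' processing notes name RMA and Partek (version 6.5). RMA corrects background, brings arrays to 1 distribution and compresses differences near background and saturation. An array has no read depth, so the number of arrays limits precision. Separate cultures are not named in the labels, and p-values then cover only the spread between these samples, which may be technical.

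Names are those of the platform annotation, updated through gene IDs in RefSeq (ASM294v3), used for names, lengths and neighbours only. Background was percentile 95 of *S. cerevisiae* probe set means, 7.08. The comparison used limma 3.58.1 in R 4.3.3 (lmFit, eBayes; two-sided, Benjamini-Hochberg over 2917 probe sets), tested on simulated data. Thresholds of 0.05 and 1.5-fold follow the series' design text. Errors are SE of the fit over 3 arrays per group. Those of the partner pairs come instead from the spread of within-array differences, without variance moderation.

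The members, classes and lists were chosen with earlier results of these data known. All members are accounted for; array values are given for the 3 highest and 3 lowest changes of the checkpoint, recombination and excision repair classes, for members past 1.5-fold and for isp7. Of the lists, genes that rose or fell are named, or else the largest change. The end-joining genes xlf1 and pol4 are named outside this rule. Values of rhp6, rad31, hus1, the rfc genes, pcn1, nbs1, ubc13, mms2, hus5, pmt3, cds1 and chk1 were added after they had been seen. From the lists, 2 entries whose names lead to genes of another function were left out.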

Additional observations from a re-analysis of the deposited data

How the results depend on the processing

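Of the 22 members past the adjusted p, 14 kept their call and direction in all 16 alternatives. With no variance moderation 3 members were higher, 1 of them a checkpoint gene and 0 an excision repair gene, and the same counts of 3, 1 and 0 were found with all probe sets fitted together. The calls on rad4 (0.0536 and 0.0724) and rhp41 (0.0751 and 0.0725) ended in both, those on rad15 (0.0566) and rad26 (0.13) in the fit of all probe sets, and that on rad3 (0.0577) with no moderation, all adjusted p. That on rad26 also ended with the intensity trend (0.0844). The fit of all probe sets called 1549 higher, 1871 lower, 320 rising and 266 falling among the 10928 probe sets. With repeated quantile normalization 14 members were lower, 7 higher and 0 fell, 5 excision repair genes were lower and 2 higher, and the median was -0.10 for that class and -0.09 for all members. Under it rad16 (0.027), rhp42 (0.003), rhp57 (0.014) and rad32 (0.032) changed sign, the calls on rhp7 (0.0786), rad15 (0.0727) and rad26 (0.316) ended, and rad60 (0.018) and rhp14 (0.00659) passed. With median centring 14 members were lower, 7 higher and 0 fell, and 5 excision repair genes were lower and 2 higher; over all probe sets 1016 were higher, 1038 lower, 154 rose and 94 fell. The medians were -0.09 for checkpoint, -0.16 for recombination, -0.10 for excision repair and -0.09 for all members, and rad24 (0.035), rad16 (0.015), rad22 (0.019), rhp57 (0.033) and rad32 (0.015) changed sign.

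With the gene length correction 8 members were higher, 11 lower and 0 fell. By class, 3 checkpoint genes were lower and 3 higher, 1 recombination gene was higher, and 2 excision repair genes were higher and 3 lower. The medians were 0.00, -0.12 and -0.09 for checkpoint, recombination and excision repair and -0.03 for all members. Signs changed for rad26 (0.027), rad21 (0.078), rad16 (0.12), rad22 (0.027), rad3 (0.14), rhp42 (0.076), rad15 (0.014) and rad32 (0.15). Of the 103 other repair genes 41 were higher and 36 lower, 0 rose and 4 fell. Over all 2917 probe sets 983 were higher (33.7%) and 1112 lower (38.1%) with this correction. The correction removes any true change that goes with length, and, as it also centres the arrays, any shift that all genes share.

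Leaving out each array gave 3 to 5 members higher, 0 to 1 that fell, 1 to 2 checkpoint and 0 to 1 excision repair genes higher, and 0 to 1 other repair genes that rose. The medians ran from -0.24 to -0.17 for recombination, -0.19 to -0.13 for excision repair and -0.15 to -0.11 for all members. Values of rad24 (-0.065 to 0.025), rhp57 (-0.043 to 0.008) and rad32 (-0.064 to 0.015), none past the threshold, spanned 0. Same-numbered arrays showed no sign of pairing. Their deviations correlated at -0.116, -0.251 and 0.108, against -0.123 to 0.25 for differently numbered arrays. Whether the samples were handled in pairs is not given in the labels. The replicate block ended 1 call, that of rad26 (-0.09, limma adjusted p = 0.0689), and took the lower members to 16. The cause of these differences was not tested.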
